A study of Bos taurus with 18 samples.

Results

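*bta-miR-221* and *bta-miR-222* were followed in all 18 small RNA libraries of a plasma study of Japanese Black cattle. They were taken by name, and they are 2 of the 1071 miRNAs in the deposited tables, both measured in every library. Blood was drawn from the jugular vein of 3 steers, at ages near 20, 25 and 30 months. Each of the 9 plasma samples gave 1 library of exosomal RNA (EX, the RNA of small vesicles that cells release) and 1 library of non-exosomal free circulating RNA (FC), so that each fraction and age had 3 libraries, 1 per steer. The labels name no treatment, and age and time of sampling cannot be told apart. Plasma carries RNA from many tissues, and fewer cells of a type and less RNA per cell cannot be told apart in it.

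A miRNA is a short RNA that guides Argonaute proteins to messenger RNAs, mostly through pairing with bases 2 to 8 of the miRNA, its seed. miR-221 and miR-222 are made from neighbouring hairpins and share a seed. They are known for repressing the cell cycle inhibitors p27 and p57 and the receptor KIT, and are well known from endothelium and vascular smooth muscle, where they act on vessel growth and on the growth state of the muscle cells.

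The mature sequences are shown because the shared and the unshared bases of both miRNAs decide which reads can be told apart. They are copied from the deposited table, 5′ to 3′, with the seed in capitals.
bta-miR-221: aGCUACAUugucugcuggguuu
bta-miR-222: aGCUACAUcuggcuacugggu

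*bta-miR-221* has 22 bases and *bta-miR-222* has 21. The seed GCUACAU was found in these 2 miRNAs and in 0 others of the table. Compared from the 5′ end without gaps, 11 of 21 positions were identical, of which the first 8 were base 1 and the seed. The substitutions, with the base of *bta-miR-221* first and positions counted from the 5′ end, were U9C, G10U, U11G, C12G, U13C, G14U, C15A, U16C, G17U and U20G. Beyond base 8, the longest run in common was CUGGGU, which starts at base 15 of *bta-miR-221* and at base 16 of *bta-miR-222*. In RefSeq's annotation of the cattle assembly ARS-UCD2.0, MIR221 and MIR222 lie next to each other on chromosome X with 0 genes between them, both inside the span of the long non-coding RNA gene LOC132344329, and the nearest protein-coding genes are ZNF674 and DIPK2B. The study mapped its reads to another assembly, so no coordinates are given.

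*bta-miR-221* was the more abundant of the pair in every library. Abundances are CPM-normalized counts, the count of a miRNA per 1000000 counts assigned to miRNAs in that library. Over the 9 EX libraries *bta-miR-221* stood at 8076 ± 2196 CPM (mean ± SD), 0.808% of a library, and was 28th of the 345 miRNAs selected in EX by mean abundance. In FC it stood at 6870 ± 1894 CPM, 0.687%, and was 35th of 358. *bta-miR-222* was at 657 ± 254 CPM over the EX libraries, where it was 89th, and at 727 ± 303 CPM over the FC libraries, where it was 84th. Its highest library was 3.78 times its lowest in EX and 3.60 times in FC, against 2.91 and 2.43 times for *bta-miR-221*.

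In EX, *bta-miR-221* was at 11579, 5723 and 9568 CPM in steers 1, 2 and 3 at 20 months of age. It was at 7912, 7917 and 3984 CPM at 25 months. At 30 months it was at 7989, 8875 and 9136 CPM. The lowest library was that of steer 3 at 25 months, and the 3 libraries at 30 months lay close together, all above those at 25 months and within the range of those at 20 months. In FC, it was at 9994, 4763 and 8152 CPM at 20 months. The values at 25 months were 8348, 8003 and 4105 CPM. Those at 30 months were 5948, 6501 and 6012 CPM. The FC libraries repeated the order of the EX libraries within steers at 20 months, with steer 2 lowest, and again had steer 3 lowest at 25 months. The ranges of all 3 ages overlapped in FC.

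In EX, *bta-miR-222* was at 945, 648 and 665 CPM in steers 1, 2 and 3 at 20 months of age. At 25 months it was at 766, 974 and 431 CPM. At 30 months it was at 384, 846 and 258 CPM. Steers 1 and 3 had their lowest EX value at 30 months, while steer 2 at that age lay above its own value at 20 months, so the ages overlapped. In FC, *bta-miR-222* was at 921, 740 and 813 CPM at 20 months. It was at 988, 1267 and 579 CPM at 25 months. It was at 388, 498 and 352 CPM at 30 months. All 3 FC libraries at 30 months lay below all 6 of the younger ages, and steer 2 was the highest at 25 and 30 months. Of the miRNAs selected in FC, 21.8% lay in this way below all libraries at 25 months and 22.1% below all at 20 months. The share below both was not counted.

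**Figure D1:**
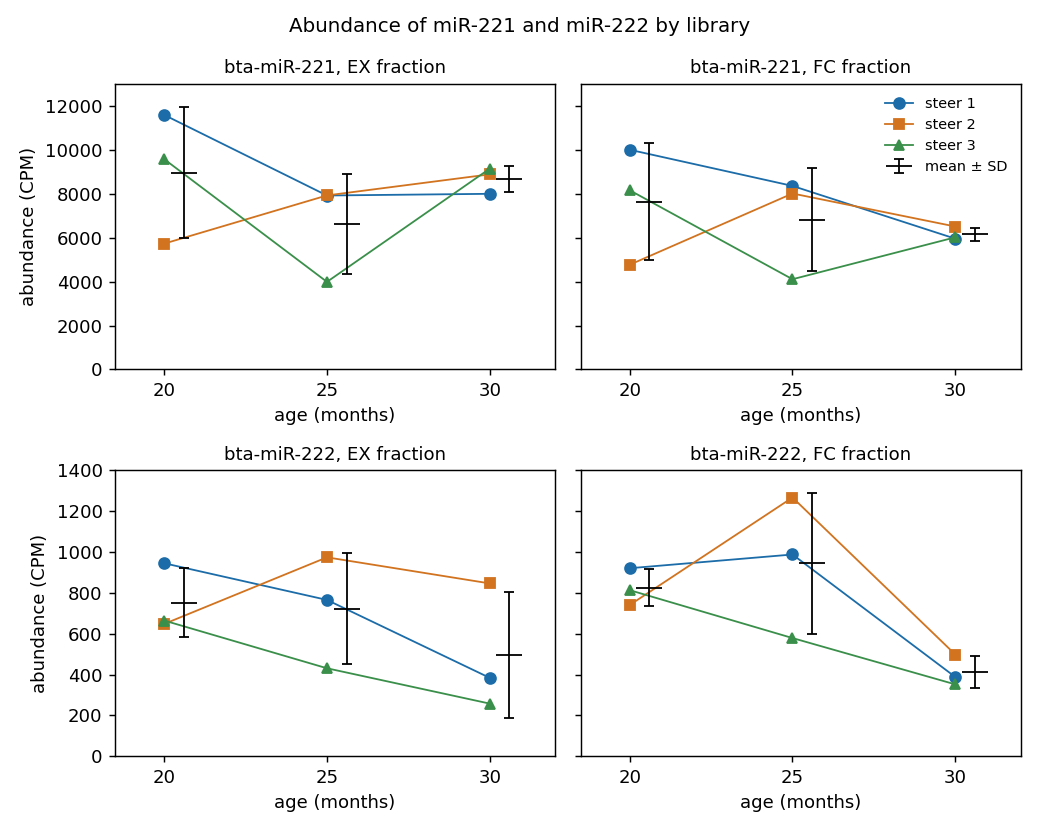
Abundance in CPM (linear axes from 0) of *bta-miR-221* (top) and *bta-miR-222* (bottom) against age in months, in EX (left) and FC (right). Each point is 1 library, coloured lines join the libraries of a steer, and black bars give mean ± SD of 3 libraries. *bta-miR-222* in FC is at 352 to 498 CPM at 30 months, below every younger library. Taken singly, 21.8% of the miRNAs selected in FC lie below all libraries at 25 months and 22.1% below all at 20 months.

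Ordered by mean, the groups of *bta-miR-221* were EX at 20 months (8957 ± 2976 CPM), EX at 30 months (8667 ± 601), FC at 20 months (7636 ± 2653), FC at 25 months (6819 ± 2357), EX at 25 months (6604 ± 2269) and FC at 30 months (6154 ± 303). For *bta-miR-222* the order was FC at 25 months (945 ± 346 CPM), FC at 20 months (825 ± 90.7), EX at 20 months (753 ± 167), EX at 25 months (724 ± 274), EX at 30 months (496 ± 310) and FC at 30 months (413 ± 76.1). Each is mean ± SD of 3 libraries. Every pair of neighbours in both orders had overlapping libraries.

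The EX libraries held 991354 to 2778618 counts and the FC libraries 3615234 to 12088735. *bta-miR-150*, the lymphocyte miRNA, took a large part of the library of steer 3 at 25 months, at 276263 CPM (EX) and 194329 CPM (FC), which was also the plasma sample with the lowest *bta-miR-221* in both fractions. The summed abundance of 3 lymphocyte miRNAs (*bta-miR-150*, *bta-miR-342* and *bta-miR-155*) ranged over 115350 to 327337 CPM at 25 months and 14429 to 28250 CPM at 30 months in EX, and over 82176 to 233288 and 15335 to 28035 CPM in FC. Since CPM values are shares, the part of this in the members' CPM was not tested. The tests of single miRNAs below used TMM normalization, which sets libraries to a common scale over most miRNAs.

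The question of the age comparisons was which plasma miRNAs change during fattening. *bta-miR-222* fell in FC from 25 to 30 months of age, and fell there from 20 to 30 months by a change just past the threshold. *bta-miR-221* passed the test in no comparison of ages. A miRNA was called a DE-miRNA (differentially abundant) at a false discovery rate (FDR) under 0.05 and an absolute log2 fold change over 1, in edgeR's quasi-likelihood test with steer as a block, over the 345 miRNAs selected in EX or the 358 in FC.

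In FC, the log2 fold change of *bta-miR-222* from 25 to 30 months was −1.26 with a standard error of 0.22 and a 95% interval of −1.77 to −0.76 (edgeR FDR 0.0118, n = 3 steers). It was lower in all 3 steers. Of all miRNAs tested in this comparison 15.6% were called, 10.1% lower and 5.59% higher, and 21.8% had all libraries at 30 months below all at 25 months. From 20 to 30 months the log2 fold change was −1.01, with a standard error of 0.22 and an interval of −1.51 to −0.51 (edgeR FDR 0.0300). Here 6.98% of all miRNAs were called, 4.19% lower and 2.79% higher, and 22.1% had all libraries at 30 months below all at 20 months. The call from 25 to 30 months was lost without steer 1 (edgeR FDR 0.0822) and without steer 3 (0.0775), with log2 fold changes of −1.31 to −1.16 over the 3 ways to leave out a steer. That from 20 to 30 months was lost without any 1 of them (−1.15 to −0.94, edgeR FDR 0.0926 to 0.142), and with no steer block or with another scaling its size came to 0.98, under the limit of 1.

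In EX, *bta-miR-222* had a log2 fold change of −1.07 from 25 to 30 months (standard error 0.33, 95% interval −1.82 to −0.31) and did not pass the test (edgeR FDR 0.0654). From 20 to 30 months it was −1.10 (0.33, −1.87 to −0.34, edgeR FDR 0.0708). The median log2 fold change of all selected miRNAs in EX was −0.51 from 25 and −0.64 from 20 to 30 months. In these comparisons 14.2% and 13.3% of all miRNAs were called, 10.4% and 9.86% lower, and 3.77% and 3.48% higher. That split depends on the scale: from 25 to 30 months in EX it was 36 lower and 13 higher with TMM, 21 and 21 with library totals and 34 and 4 scaled to *bta-miR-93*, the study's qPCR normalizer. For 20 to 30 months in EX the splits were 34 and 12, 15 and 13, and 18 and 2 in the same order. In FC, scaling to *bta-miR-93* gave 84 lower and 3 higher from 25 to 30 months (36 and 20 with TMM) and 56 and 3 from 20 to 30 months (15 and 10). The intervals exclude 0 but include changes smaller than the limit of the call. With only miRNAs above 5 CPM in every library tested, both comparisons passed (edgeR FDR 0.0281 and 0.0276), and with library totals in place of TMM the change from 25 months was −0.61 (FDR 0.320). The 3 lymphocyte miRNAs were all called lower from 25 to 30 months in both fractions (median log2 fold change −2.31 in EX and −1.81 in FC), and 2 in EX and 1 in FC from 20 to 30 months. Their part in the changes of *bta-miR-222* was not tested.

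For *bta-miR-221* in EX, the log2 fold change was −0.02 from 25 to 30 months (95% interval −0.63 to 0.59, edgeR FDR 0.976) and −0.35 from 20 to 30 months (−0.96 to 0.26, FDR 0.422). The CPM values of 25 and 30 months do not overlap, and the direction depends on the scale: with library totals in place of TMM the log2 fold change was 0.43. All libraries at 30 months lay above all at 25 months for 18% of the miRNAs selected in EX. The median log2 fold change of all selected miRNAs in EX was −0.51 from 25 to 30 months with TMM and −0.04 with library totals, so *bta-miR-221* lay above that median on both scales. In FC, its log2 fold change was −0.21 from 25 to 30 months (−0.82 to 0.41, edgeR FDR 0.600) and −0.26 from 20 to 30 months (−0.87 to 0.36, FDR 0.547).

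From 20 to 25 months neither member was called. The log2 fold changes of *bta-miR-221* were −0.33 in EX (standard error 0.27) and −0.05 in FC (0.27), and those of *bta-miR-222* were −0.04 in EX (0.32) and 0.26 in FC (0.22), with edgeR FDR of 0.997 in EX and 0.999 in FC. The share of all miRNAs called was 0.29% in EX and 0% in FC, where 13 miRNAs had an unadjusted p under 0.05.

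**Figure D2:**
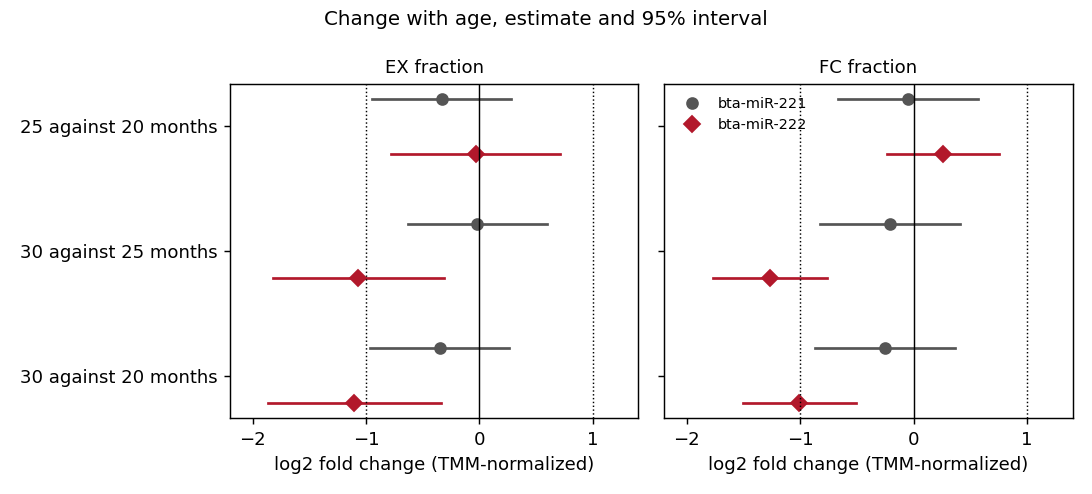
TMM-normalized log2 fold change (x axis) for each comparison of ages (y axis) in EX (left) and FC (right), with points for the estimate and bars for the 95% interval over 3 steers. Dotted lines mark the fold change limits of a call. The bars of *bta-miR-222* lie below 0 in the comparisons with 30 months in both fractions, and those of *bta-miR-221* cross 0 in every comparison.

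The members were also compared with each other, since both are read in the same library and its scaling cancels in their ratio. In EX, the libraries of steers 1, 2 and 3 held 8.16, 11.3 and 6.95 counts of *bta-miR-222* per 100 counts of *bta-miR-221* at 20 months of age. They held 9.68, 12.3 and 10.8 at 25 months. They held 4.80, 9.54 and 2.82 at 30 months. Every steer had its lowest ratio at 30 months, though steer 2 at that age lay above steers 1 and 3 at 20 months. In FC, the values were 9.21, 15.5 and 9.98 at 20 months. They were 11.8, 15.8 and 14.1 at 25 months. They were 6.52, 7.66 and 5.85 at 30 months, below all 6 younger libraries. Steer 2 had the highest ratio of the 3 steers at every age in both fractions.

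The ratio at 30 months was set against the mean of 20 and 25 months of the same steer on the log2 scale. It was lower by 0.94 in EX, with per-steer differences of −0.89, −0.31 and −1.62, and lower by 0.91 in FC, with −0.68, −1.03 and −1.02. Both were lower in 3 of 3 steers with p = 0.037, the smallest that the exact permutation test over 27 choices of 1 library per steer can give (two-sided). The SD over steers was 0.66 in EX and 0.20 in FC. Without steer 3 the EX difference was −0.60, and with 2 steers the smallest possible p is 0.111. Over the 3 ratio tests run, the values adjusted by Benjamini and Hochberg were 0.037 each (exact permutation tests).

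**Figure D3:**
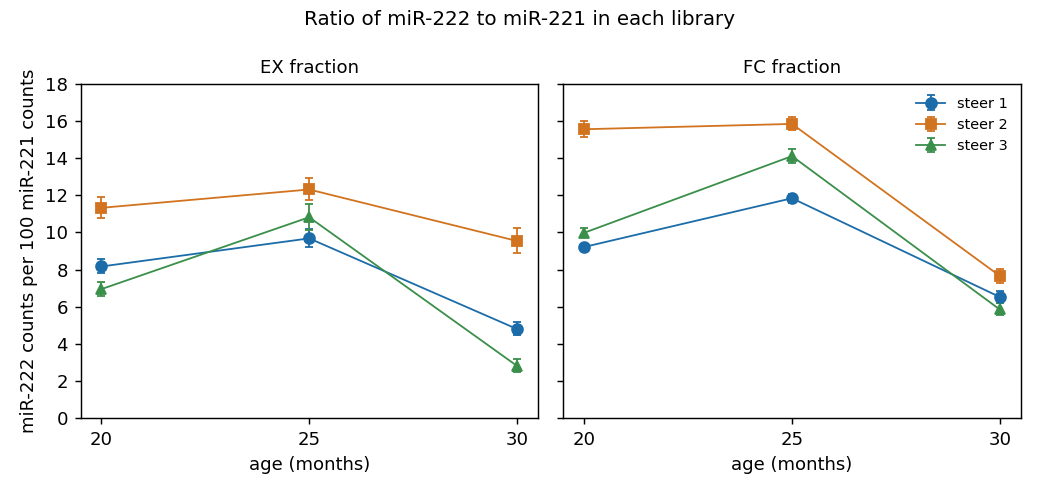
Counts of *bta-miR-222* per 100 counts of *bta-miR-221* (linear axis from 0) against age in months, in EX (left) and FC (right), 1 point per library and 1 line per steer. Bars are 95% Wilson intervals and cover counting error only. The FC ratios are 5.85 to 7.66 at 30 months and 9.21 to 15.8 before, and the steer 2 line is the highest in both panels.

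To show how many counts lie behind *bta-miR-222* at 30 months, a count step was taken from each library of that age, the centre of the narrow window of counts that held the most miRNAs with whole counts (21 to 28 miRNAs). It was set for these libraries only, after the data were seen, and the most common single count was 1 in 5 of the 6 libraries and 17 in the FC library of steer 1. The step was 86, 68 and 39 counts in the EX libraries of steers 1, 2 and 3, and 17, 33 and 19 in FC. Counted in such steps, *bta-miR-222* came to 9, 12 and 7 in EX, with exact Poisson 95% intervals of 4.12 to 17.1, 6.20 to 21.0 and 2.81 to 14.4. In FC it came to 111, 55 and 70 steps. *bta-miR-221* came to 185, 129 and 254 steps in EX and 1704, 712 and 1203 in FC. The EX value of *bta-miR-222* at 30 months thus rests on the fewest steps of the 4 sets. Whether 1 step is the read number of 1 captured molecule was not tested, and intervals from reads alone cover counting error only, since copies made by PCR are not independent. With the counts at 30 months divided by the step, the EX log2 fold change of *bta-miR-222* was −1.22 from 25 months (edgeR FDR 0.0392) and −1.25 from 20 months (FDR 0.0409). Divided by the most common single count instead, which is 1 in the EX libraries and so leaves them as they are, *bta-miR-222* was not called, at −1.07 (edgeR FDR 0.0654) and −1.10 (FDR 0.0708).

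The comparison of fractions asks which miRNAs of a plasma sample take a larger share of its EX or of its FC library. Each library is scaled to its own total, so the quotients below do not compare amounts per volume of plasma. Neither member was called at any age. The CPM of *bta-miR-221* in EX divided by that in FC was 1.16, 1.20 and 1.17 in steers 1, 2 and 3 at 20 months. It was 0.948, 0.989 and 0.971 at 25 months. It was 1.34, 1.37 and 1.52 at 30 months. The 3 steers lay close together at each age. At 30 months all 3 EX libraries lay above all 3 FC libraries in CPM, as was so for 13% of the 330 miRNAs selected in both fractions. For *bta-miR-222* the quotients were 1.03, 0.875 and 0.817 at 20 months. They were 0.775, 0.769 and 0.744 at 25 months. They were 0.989, 1.70 and 0.732 at 30 months, when steer 2 alone stood above 1.

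With TMM normalization over the 330 miRNAs selected in both fractions and the plasma sample as a block, the log2 difference EX minus FC of *bta-miR-221* was 0.19 at 20 months (standard error 0.075, edgeR FDR 0.203), −0.06 at 25 months (0.075, FDR 0.791) and 0.23 at 30 months (0.075, FDR 0.0524). Those of *bta-miR-222* were −0.19, −0.41 and −0.16 (standard errors 0.21, 0.21 and 0.22, edgeR FDR 0.860, 0.413 and 0.613). The shares of all miRNAs called were 2.12%, 2.12% and 13.6%. The difference of *bta-miR-221* at 30 months was 0.49 with library totals (edgeR FDR 0.000982), and its FDR was also under 0.05 with RLE size factors, in DESeq2, with CPM > 5 in every library and with rows as deposited (differences of 0.27 to 0.30), all below the fold change limit of a call. It was 0.575 with no block, 0.573 with steer as the block, 0.375 with all miRNAs, 0.342 with the count step, 0.156 in edgeR's likelihood ratio test and 0.0908 scaled to *bta-miR-93*. At 20 months the FDR was under 0.05 with RLE size factors (0.0402) and in DESeq2 (0.00151), and not in the other alternatives. Without steer 3, the difference at 30 months was −0.04, and without steer 2 that of *bta-miR-222* was −0.64 (edgeR FDR 0.0548). The change from 25 to 30 months in EX minus that in FC was 0.29 for *bta-miR-221* (standard error 0.11, edgeR FDR 0.134) and 0.25 for *bta-miR-222* (0.30, FDR 0.639). This difference of changes was judged on an FDR under 0.05 alone, with no limit on its size, which 6.97% of all miRNAs passed. With library totals in place of TMM that of *bta-miR-221* was 0.54 and passed on this rule (edgeR FDR 0.0140), so whether its age change differed between the fractions depends on the scale. Both directions also turned when 1 steer was left out, to −0.041 for *bta-miR-221* without steer 3 and to −0.35 for *bta-miR-222* without steer 2. Without steer 3 the TMM median over all miRNAs moved too. It went from −0.32 to −0.68 for the difference of changes, and from −0.56 to −0.90 for EX minus FC at 30 months. The CPM quotients of *bta-miR-221* in steers 1 and 2 rose from 0.948 and 0.989 at 25 months to 1.34 and 1.37 at 30 months. The part of the scale in the turn was not tested.

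**Figure D4:**
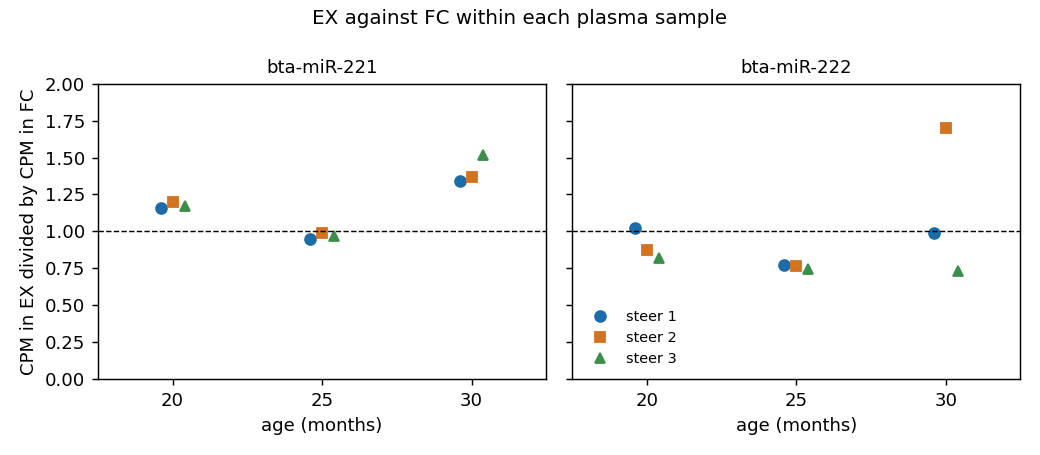
CPM in EX divided by CPM in FC of the same plasma sample (linear axis from 0), against age in months, for *bta-miR-221* (left) and *bta-miR-222* (right). Each point is 1 plasma sample of 1 steer, and the dashed line marks equal CPM. *bta-miR-221* lies between 0.948 and 1.52 with the steers close together at each age, and *bta-miR-222* lies between 0.732 and 1.70.

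The ratio of the pair was lower in EX than in FC in 8 of the 9 plasma samples, the exception being steer 2 at 30 months. The mean log2 difference was −0.37 ± 0.36 (SD, n = 9), with p = 0.0156 in the exact two-sided sign-flip permutation test. The plasma samples of a steer share the animal, so this p measures the spread between samples. The steer means were −0.30, −0.17 and −0.65, and over 3 steers an exact sign flip cannot go below 0.25. Without steer 1 the mean was −0.41 (exact p = 0.0625) and without steer 3 it was −0.23 (exact p = 0.125).

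Likeness to other miRNAs was measured as Pearson's r of log2 CPM (TMM) over the 18 libraries, which share steers and plasma samples, against each of 329 other miRNAs selected in both fractions. It is a description. The miRNAs most like *bta-miR-221* were *bta-miR-24-3p* (r = 0.89), *bta-miR-145* (0.60) and *bta-miR-27a-3p* (0.57). Their abundance levels differed, with *bta-miR-24-3p* between 5193 and 7640 CPM in the 6 group means and *bta-miR-145*, a smooth muscle miRNA, between 149 and 459 CPM. *bta-miR-222* was 21st in this order (r = 0.27). Those most like *bta-miR-222* were *bta-miR-455-5p* (0.83), *bta-miR-664b* (0.79) and *bta-miR-28* (0.79), and *bta-miR-221* was 143rd. *bta-miR-28* was at 0 in 2 EX and 2 FC libraries at 30 months, and *bta-miR-664b* in 2 EX libraries. Within EX alone, *bta-miR-222* was 80th in the order of *bta-miR-221* (r = 0.19), and within FC 11th (0.52). The first 3 also differed within fractions. For *bta-miR-221* they were *bta-miR-27a-3p*, *bta-miR-24-3p* and *bta-miR-223* in EX, and *bta-miR-24-3p*, *bta-miR-2483-3p* and *bta-miR-2285by* in FC. For *bta-miR-222* they were *bta-miR-664b*, *bta-miR-331-5p* and *bta-miR-151-5p* in EX, and *bta-miR-23a*, *bta-miR-107* and *bta-miR-28* in FC.

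Among 14 other miRNAs known from the vessel wall or vessel growth, 13 were tested in EX and 14 in FC. From 25 to 30 months, 3 were called in EX and 4 in FC, where 14.2% and 15.6% of all miRNAs were called. In EX, 1 was higher, *bta-miR-130a* (326 ± 135 to 1142 ± 216 CPM), and 2 were lower, *bta-miR-31* (317 ± 120 to 97.2 ± 25.9 CPM) and *bta-miR-92a* (11849 ± 1468 to 6536 ± 553 CPM). In FC, 1 was higher, *bta-miR-10a* (350 ± 143 to 799 ± 58.4 CPM), and 3 were lower, *bta-miR-31* (296 ± 118 to 67.3 ± 30.5 CPM), *bta-miR-424-5p* (77.2 ± 14.1 to 28.1 ± 14.1 CPM) and *bta-miR-92a* (12589 ± 2472 to 4868 ± 1043 CPM). The endothelial *bta-miR-126-3p* and the smooth muscle *bta-miR-143* and *bta-miR-145* were not called in either of these comparisons. The median log2 fold change of the list was −0.06 in EX and −0.40 in FC, against −0.51 and −0.20 over all selected miRNAs. From 20 to 30 months, *bta-miR-126-3p* was higher in EX (log2 fold change 1.36, edgeR FDR 0.0149), as was *bta-miR-130a*, and *bta-miR-92a* was lower in both fractions, where 13.3% of all miRNAs were called in EX and 6.98% in FC, with medians of −0.02 and 0.11 against −0.64 and −0.12 over all. From 20 to 25 months 0 were called in either fraction. Between fractions at 30 months, *bta-miR-126-3p* and *bta-miR-145* were called higher in EX (log2 difference 1.18 and 1.06, edgeR FDR 0.0167 and 0.0180) and *bta-miR-143* lower (−1.04, FDR 3.51e-05), where 13.6% of all miRNAs were called, and at 20 and 25 months 0 of the list were called.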

How the data were processed

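Small RNA was sequenced in 18 libraries, 9 EX and 9 FC. The authors trimmed reads with Trimmomatic 0.39 and cutadapt 5.0 and checked them with FastQC 0.12.1 (submitters' processing notes), mapped them to a Japanese Black cattle genome and counted mature miRNAs with the quantifier of miRDeep2. They deposited expected counts, not all whole because reads can be shared, and CPM values, which include a total row and were otherwise a per-million scaling of those counts. Of the columns of per-sample values all were used. In 4 FC libraries some count rows disagreed with the CPM rows (relative tolerance 0.001 or 0.02 counts) and were recomputed from CPM. No row of the members was among them.

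Counts were rounded, selected at CPM > 5 in at least 3 of 9 libraries per fraction, TMM-normalized and tested with edgeR 4.0.16 (quasi-likelihood, R 4.3.3). Age was fitted with steer as a block, since the study samples the same 3 steers at each age and gives the last number of a library name as the individual. The mean correlation of deviations was 0.0247 in EX and 0.0826 in FC for libraries of the same steer. EX and FC were compared with the plasma sample as a block, where it was 0.201. Standard errors come from the fold change and its F value, intervals at 95%. Ratios used a pseudocount of 0.5 and exact permutation tests over 3 steers or 9 plasma samples. The p-values of the age comparisons measure the spread between libraries of these 3 steers, and those between fractions the spread between plasma samples, 3 of each steer. No library was a copy of another. DESeq2 1.42.0, other scalings, filters, row and count treatments and leaving out a steer were alternatives. The method was also run on simulated counts, whose outcome is not given here. The count step is the centre of the window of a factor of 1.25 that holds most whole counts, among centres above the lowest counts. It is a setting added after seeing the data. Tables were made with Python 3.11.15, numpy 2.4.6, pandas 2.3.3, scipy 1.17.1 and matplotlib 3.10.9.

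The members, the marker lists (vessel wall, striated muscle, red cells, lymphocytes, liver, and myeloid cells and platelets) and the tests were chosen with earlier results of these data known. Named miRNAs are the members, those of the same seed, the 3 most like each member over all libraries or within a fraction, the study's qPCR normalizer *bta-miR-93*, and list members. The qPCR and carcass data were not analysed here.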

Additional observations from a re-analysis of the deposited data

How the results depend on the processing

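The lower *bta-miR-222* in FC at 30 months than at 25 months kept its call in all 11 alternatives that kept every steer (log2 fold change −1.80 to −1.16). From 20 to 30 months in FC the call was lost with no replicate block (−0.98, edgeR FDR 0.0399), with RLE size factors (−0.98), with library totals (−1.03, FDR 0.0565), in DESeq2 (−0.98, FDR 0.000599) and with count rows as deposited (−1.04, FDR 0.0658). In EX, *bta-miR-222* became a call with CPM > 5 in every library (−1.02 from 25 and −1.03 from 20 months), with the count step (−1.22 and −1.25) and, from 20 months, in the likelihood ratio test (−1.10, FDR 0.0494). The sign of changes near 0 turned for *bta-miR-222* in EX from 20 to 25 months (0.027 with no replicate block, 0.0052 with all miRNAs). It turned for *bta-miR-221* in EX from 25 to 30 months (0.067 with RLE and DESeq2, 0.43 with library totals, 0.024 with CPM > 5 in every library) and in FC from 20 to 25 months (0.088 when scaled to *bta-miR-93*). Between fractions it turned for *bta-miR-222* at 20 months (0.082 scaled to *bta-miR-93*) and 30 months (0.10 with library totals, 0.040 scaled to *bta-miR-93*), and for *bta-miR-221* at 25 months (0.067 with RLE and DESeq2, 0.050 scaled to *bta-miR-93*, 0.028 with CPM > 5 in every library and with rows as deposited). The EX minus FC age change of *bta-miR-221* passed with library totals (0.54). The ratio of the pair at 30 against 25 months alone was −1.10 in EX and −1.06 in FC, where 3 pairs cannot go below an exact p of 0.25, and with no replicate block its difference between EX and FC was −0.37 with a permutation p of 0.221. The replicate block changed no other call of the members. The cause of these changes was not tested.

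Leaving out 1 steer gave these ranges of log2 values. From 20 to 25 months they were −0.60 to −0.053 and −0.18 to 0.14 (EX, *bta-miR-221* and *bta-miR-222*), and −0.42 to 0.15 and 0.0029 to 0.36 (FC). From 25 to 30 months they were −0.25 to 0.072 and −1.39 to −0.90 (EX), and −0.35 to −0.092 and −1.31 to −1.16 (FC). From 20 to 30 months they were −0.53 to −0.14 and −1.57 to −0.78 (EX), and −0.51 to −0.11 and −1.15 to −0.94 (FC). EX minus FC was 0.22 to 0.27 and −0.22 to −0.071 at 20 months, −0.0028 to 0.052 and −0.33 to −0.29 at 25 months, and −0.043 to 0.23 and −0.64 to −0.11 at 30 months, and the difference of age changes was −0.041 to 0.18 and −0.35 to 0.22. The ratio at 30 months was −1.25 to −0.60 in EX and −1.03 to −0.85 in FC, and its difference between fractions −0.48 to −0.23.

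Calls over all miRNAs numbered 49 in EX and 56 in FC from 25 to 30 months, with 37 in EX when all miRNAs were tested, 38 scaled to *bta-miR-93*, 85 by DESeq2 and 90 by the likelihood ratio test, and in FC 10 with rows as deposited and 87 scaled to *bta-miR-93*. From 20 to 30 months FC calls went from 25 to between 2 (rows as deposited) and 59 (scaled to *bta-miR-93*), and EX calls from 46 to between 20 (scaled to *bta-miR-93*) and 83 (likelihood ratio test). EX against FC at 30 months had 45 calls, with 18 for the count step and 98 in DESeq2, and the difference of age changes had 23, with 8 and 59. Without 1 steer, with fewer libraries in the fit, the calls from 25 to 30 months numbered 0 (without steer 2) to 18 in EX and 1 (without steer 1 or steer 3) to 54 (without steer 2) in FC. From 20 to 30 months they numbered 0 (without steer 2) to 12 in EX and 1 (without steer 1) to 10 in FC. The share called from 25 to 30 months in FC thus rests on steers 1 and 3, and the other 3 of these shares on all 3 steers. EX against FC at 30 months had 29 to 48 calls.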

Other observations

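Of 7 striated muscle miRNAs, 5 were tested and 0 were called in any comparison of ages or fractions by edgeR, in which 0% to 15.6% of all miRNAs were called, so 0 of 5 does not set them apart. Their summed abundance was 48.4 to 730.4 CPM over the EX libraries, against 3984 to 11579 CPM for *bta-miR-221* there. The 3 red cell miRNAs summed to 25390 to 75485, 28558 to 92244 and 34776 to 54074 CPM in EX at 20, 25 and 30 months. Of these, *bta-miR-451* was called lower in EX at 30 months against both younger ages, and 0 in FC. In EX 14.2% of all miRNAs were called against 25 months and 13.3% against 20 months. The uncalled *bta-miR-486* rose in mean CPM to 30 months, at 25096, 29453 and 38561 in EX and 16480, 16354 and 23000 in FC. With TMM its log2 fold change in EX was 0.20 from 20 to 30 months (edgeR FDR 0.838), while all 3 were below 0 from 25 to 30 months. The 2 liver miRNAs summed to 22995 to 95293, 12268 to 73054 and 35472 to 108600 CPM in EX. In FC they summed to 39501 to 121582, 18960 to 75397 and 23010 to 97366 CPM. *bta-miR-885* was called lower in FC at 30 months against both younger ages, where it was at 0 in 2 of 3 libraries. There 15.6% of all miRNAs were called against 25 months and 6.98% against 20 months. The far more abundant *bta-miR-122* was called in no comparison, with FC means of 67898.5, 39695.8 and 64937.8 CPM at 20, 25 and 30 months. The call of *bta-miR-885* as higher in EX than in FC at 30 months rests on steer 3 (70.2 against 0.526 CPM), since steers 1 and 2 were at 0 in both fractions. Between fractions, *bta-miR-451* was called higher in EX at 20 months, *bta-miR-223* lower in EX at 30 months, and of the 3 lymphocyte miRNAs *bta-miR-342* higher in EX at 20 months. *bta-miR-223*, known from myeloid cells and platelets, stood at 48799 to 59516 CPM in FC at 30 months, at 13252 to 47324 CPM at 25 months and at 28014 to 62526 CPM at 20 months, and was called in 0 comparisons of ages within a fraction. Its change from 25 to 30 months in EX minus that in FC passed (−0.78, edgeR FDR 0.0156). The part of these cell types in the levels of *bta-miR-221* and *bta-miR-222* was not tested.

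The study's qPCR normalizer *bta-miR-93* stood at 11388 ± 3259 CPM at 25 months and 20044 ± 5769 CPM at 30 months in EX (mean ± SD, n = 3), and at 11944 ± 1966 and 19049 ± 4006 CPM in FC. With TMM its log2 fold change was 0.37 in EX (edgeR FDR 0.469) and 0.54 in FC (FDR 0.102), not called in either. The log2 fold change of *bta-miR-222* in FC scaled to *bta-miR-93* was −1.80.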
